A study of Mus musculus with 8 samples.

Results

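The Sprouty and Spred genes encode a family of inhibitors of the Ras–ERK pathway, and their transcripts were measured in mouse hippocampal neurons exposed to melanin-concentrating hormone (MCH), a hypothalamic neuropeptide that signals through a G-protein-coupled receptor. The family was taken by gene symbol and has 7 members, *Spry1*, *Spry2*, *Spry3*, *Spry4*, *Spred1*, *Spred2* and *Spred3*. Of these, 6 were matched among the 45706 genes of the count table and all 6 passed the low-count filter that 14962 genes passed. *Spry3* was not analysed here. Cells came from C57/Bl6 wild-type embryos at embryonic day 18 and received either water (H2O, the vehicle) or 1 µM MCH for 4 h, with 4 wells per treatment, and were harvested at 12 to 14 days in vitro. The 4 wells of a treatment came from 2 cultures with 2 wells each, but neither the labels nor the methods say which well belonged to which culture. The labels also carry a model tag for Alzheimer's disease, whereas the genotype given for every well is wild type. Glial growth was limited with 5-fluoro-2′-deoxyuridine, according to the methods. *P* values below measure the spread between wells, which is in part that between wells of the same culture. Wells of the same culture are not independent, so 4 wells stand for 2 independent cultures.

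With MCH *Spry2* fell by 30.8% and *Spry4* fell by 20.6%, and these were the members whose change passed the test across all genes, in which 0.207% of genes were called lower. The fitted levels of *Spred2* and *Spred3* were −10.1% and −9.46% relative to vehicle, and these genes passed only when the fit had a block for the replicate number or for the side of the wells, as set out with their values. *Spry1* and *Spred1* did not pass in any fit that was run. All 6 log2 fold changes were below 0, as were 51.0% of those of all genes tested.

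Sprouty and Spred proteins share a cysteine-rich domain at the carboxy terminus that anchors them to membranes. Sprouty proteins act downstream of growth factor receptors such as those for fibroblast growth factors, where a conserved tyrosine lets them engage adaptors and the ubiquitin ligase Cbl. Spred proteins add an amino-terminal EVH1 domain, through which they bring the Ras GTPase-activating protein neurofibromin to the membrane. Transcription of Sprouty genes is itself raised by ERK activity, so the family is known as a negative feedback loop, and in neurons it has been linked to neurite growth and to the response to neurotrophins.

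Libraries held 26083936 to 28240903 estimated reads with vehicle and 26806683 to 31844861 with MCH, and the members were covered by at least 377 reads in every well. Across all genes, edgeR's quasi-likelihood test (Benjamini–Hochberg adjusted) called 31 genes lower and 4 higher, and the median log2 fold change was −0.0027. Within each treatment the wells fell on opposite sides of the first principal component, which held 59.8% of the variance left after the treatment means were removed. Replicates 1 and 2 lay on one side and replicates 3 and 4 on the other. The sides differed in cell type markers. Summed TPM (salmon's measure of transcript abundance, scaled for length and depth) of 8 astrocyte markers ranged from 328 to 367 in replicates 1 and 2 and from 923 to 1084 in replicates 3 and 4. For 8 inhibitory neuron markers the ranges were 4804 to 5096 and 3083 to 3815, and for 10 neuron markers they were 5523 to 5797 and 5120 to 5263. Markers of the oligodendrocyte lineage (35.9 to 41.8, then 93.1 to 113, with *Sox10* and *Mog* under 3 counts in every well), of microglia (5.54 to 8.5, then 11.8 to 16.9), of fibroblasts and vessels (15.8 to 25.3, then 49.3 to 53.6) and of dividing cells (72.4 to 85.5, then 87.4 to 101) were all higher in replicates 3 and 4. Between treatments all of these ranges overlapped, for example 328 to 972 TPM with vehicle and 347 to 1084 with MCH for astrocytes. Each treatment held both sides, so this overlap does not test MCH. Without a block edgeR called no gene of these lists. Log2 fold changes were below 0 for 0 of 8 astrocyte and 7 of 8 inhibitory neuron markers, with medians of 0.06 and −0.09. Among 10 neuron markers 5 were below 0 (51.0% of all genes). With the replicate block 1 astrocyte marker was called higher (1.73% of all genes) and 1 inhibitory neuron marker lower (2.25%). The side block called only the latter (2.61%). In bulk samples such as these, fewer cells of a type and less RNA per cell cannot be told apart.

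The members differ in gene structure. In GENCODE vM21 on GRCm38, *Spry2* (ENSMUSG00000022114) lies on chromosome 14 from 105891947 to 105896819 on the reverse strand and has 1 annotated transcript with 2 exons, of which 1 holds the whole coding sequence of 945 bases. *Spry1* (ENSMUSG00000037211, chromosome 3, 37639947 to 37644598, forward strand) also keeps its coding sequence of 939 bases within 1 exon, as does *Spry4* with 900 bases. The Spred genes are split. *Spred1* (ENSMUSG00000027351) spans 60906 bases of chromosome 2 (117121374 to 117182279, forward strand) and *Spred2* (ENSMUSG00000045671) 99652 bases of chromosome 11 (19924375 to 20024026, forward strand), each with 7 coding exons in its longest transcript. *Spred3* (ENSMUSG00000037239, chromosome 7, 29158829 to 29170411, reverse strand) has 5 coding exons.

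Promoters are shown for *Spry2*, the member with the largest fold change, and for *Spry1*, a Sprouty gene whose change did not pass the test. The letters are the 250 bases upstream of the start in RefSeq (GRCm38.p6), given 5′ to 3′ on the strand of the gene, chr14:105896820-105897069 for *Spry2* and chr3:37639697-37639946 for *Spry1*.
Spry2: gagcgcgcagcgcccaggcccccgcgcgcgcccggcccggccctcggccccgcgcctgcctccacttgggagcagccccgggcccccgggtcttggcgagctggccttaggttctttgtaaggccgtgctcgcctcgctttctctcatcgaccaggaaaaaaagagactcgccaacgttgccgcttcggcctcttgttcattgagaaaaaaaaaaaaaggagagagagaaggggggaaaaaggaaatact
Spry1: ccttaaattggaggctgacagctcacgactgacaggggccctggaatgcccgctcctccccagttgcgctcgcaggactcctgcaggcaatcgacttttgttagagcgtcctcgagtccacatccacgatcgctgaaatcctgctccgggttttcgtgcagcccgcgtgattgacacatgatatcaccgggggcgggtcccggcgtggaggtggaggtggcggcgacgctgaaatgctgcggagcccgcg
These and the upstream sequences of the 3 Spred genes were searched on both strands for the cAMP response element TGACGTCA, its shorter form TGACG, which the full element also contains, the Ets core CCGGAAG and the E-box CACGTG. Among 32851 RefSeq promoters of the same length, 1.55%, 17.8%, 6.91% and 6.02% held these letters. The *Spry2* and *Spry1* sequences held none of them, so no letter above is in capitals, and both had a GC content of 62.4%, against a median of 52.4% over all promoters. Of the 5 member promoters searched, *Spred2* had the 1 match, the shorter form read on the opposite strand and starting 51 bases before the RefSeq start. The 25 bases around it are shown with the match in capitals.
Spred2: gctgggaagaCGTCAtcgcttccgc
This stretch, chr11:19924381-19924405, lies in the 5′ untranslated part of the first exon of *Spred2-202*, which starts further upstream in GENCODE than the RefSeq transcript. The GC content was 56.0% for *Spred2*, 55.6% for *Spred3* and 70.8% for *Spred1*. These are matches of letters only, and binding of any factor was not measured.

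*Spry2* was the member that differed most between treatments. In vehicle replicates 1 to 4 its level was 99.9, 108, 90.6 and 94.7 CPM (reads of a gene relative to the library total, scaled with TMM factors), and in MCH replicates 1 to 4 it was 71.5, 63.7, 70.3 and 66.2 CPM. Every MCH well was therefore below every vehicle well. The mean went from 98.2 ± 7.39 to 67.9 ± 3.57 CPM (SD, n = 4 wells each), a log2 fold change of −0.53 (SE 0.06), and edgeR's quasi-likelihood test gave a Benjamini–Hochberg adjusted *P* = 0.0135, which placed *Spry2* 7th of 14962 genes by *P* value. The log2 difference within a replicate number was −0.48, −0.76, −0.37 and −0.51 for numbers 1 to 4. Leaving out single wells kept the log2 fold change between −0.56 and −0.48, but the call was lost in 3 of 8 such fits, without vehicle replicate 1 (adjusted *P* = 0.0745 by the same edgeR test), vehicle replicate 4 (0.05003) or MCH replicate 4 (0.0668).

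*Spry4* (ENSMUSG00000024427, chromosome 18, 38586247 to 38601415, reverse strand), a relative of *Spry2* that restrains signalling from the same kind of receptor, was lower as well. Vehicle replicates 1 to 4 had 72.5, 68.6, 66.1 and 71.6 CPM, and MCH replicates 1 to 4 had 59.0, 53.7, 54.9 and 53.6 CPM. The lowest vehicle well was above the highest MCH well. The mean fell from 69.7 ± 2.94 to 55.3 ± 2.56 CPM (SD, n = 4 wells each), with a log2 fold change of −0.33 (SE 0.047) and a Benjamini–Hochberg adjusted *P* = 0.0281 by the edgeR quasi-likelihood test (22nd of 14962 genes). Pair by pair the log2 difference was −0.30, −0.35, −0.27 and −0.42. This call was lost in 6 of 8 fits without a single well. It was kept without MCH replicate 1 (0.0302) or vehicle replicate 3 (0.0391) and lost without vehicle replicate 1 (0.166), 2 (0.124) or 4 (0.151) or MCH replicate 2 (0.142), 3 (0.119) or 4 (0.138), all adjusted *P* values from edgeR, while the log2 fold change stayed between −0.36 and −0.31. When average transcript length entered as an offset, *Spry4* remained at −0.33 on the log2 scale but the adjusted *P* from edgeR was 0.141.

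*Spry1* was the least abundant of the 3 Sprouty genes measured. It had 16.5, 15.1, 20.1 and 21.8 CPM in vehicle replicates 1 to 4 and 17.2, 14.2, 18.1 and 16.0 CPM in MCH replicates 1 to 4. The treatments overlapped, and the higher vehicle values were those of replicates 3 and 4. Means were 18.4 ± 3.1 and 16.4 ± 1.7 CPM (SD, n = 4 wells each), with a log2 fold change of −0.17 (SE 0.124) and an adjusted *P* = 0.802 (edgeR's quasi-likelihood test, Benjamini–Hochberg). The log2 difference was 0.06 and −0.09 for replicate numbers 1 and 2 and −0.15 and −0.44 for numbers 3 and 4. Without single wells the log2 fold change of *Spry1* ranged from −0.24 (without vehicle replicate 2) to −0.07 (without vehicle replicate 4), and was −0.10 without MCH replicate 2.

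*Spred2*, which is widely expressed and recruits neurofibromin, had 186, 194, 184 and 188 CPM in vehicle replicates 1 to 4. In MCH replicates 1 to 4 it had 180, 175, 161 and 160 CPM. The gap between the treatments was narrow, 180 against 184 CPM, yet the wells did not overlap. The log2 fold change was −0.15 (SE 0.046), with means of 188 ± 4.1 and 169 ± 10.02 CPM (SD, n = 4 wells each) and an adjusted *P* = 0.342 (edgeR's quasi-likelihood test, Benjamini–Hochberg).

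*Spred3*, the family member that lacks a functional Kit-binding domain, showed a difference of similar size. It was at 154, 161, 148 and 146 CPM in vehicle replicates 1 to 4 and at 140, 142, 138 and 131 CPM in MCH replicates 1 to 4. Here too no MCH well reached the lowest vehicle well. Means were 152 ± 6.6 and 138 ± 4.83 CPM (SD, n = 4 wells each), the log2 fold change was −0.14 (SE 0.043), and the adjusted *P* was 0.342 (edgeR's quasi-likelihood test, Benjamini–Hochberg).

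*Spred1*, whose loss in people causes a syndrome related to neurofibromatosis, differed between the sides in both treatments. Vehicle replicates 1 to 4 had 115, 113, 140 and 134 CPM and MCH replicates 1 to 4 had 110, 105, 134 and 136 CPM. In both treatments replicates 3 and 4 were above replicates 1 and 2. The means were 125 ± 13.6 and 121 ± 16.0 CPM (SD, n = 4 wells each), and the log2 fold change was −0.05 (SE 0.106, edgeR's quasi-likelihood test, Benjamini–Hochberg adjusted *P* = 0.993). Without a single well the log2 fold change of *Spred1* ranged from −0.10 to 0.02.

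**Figure D1:**
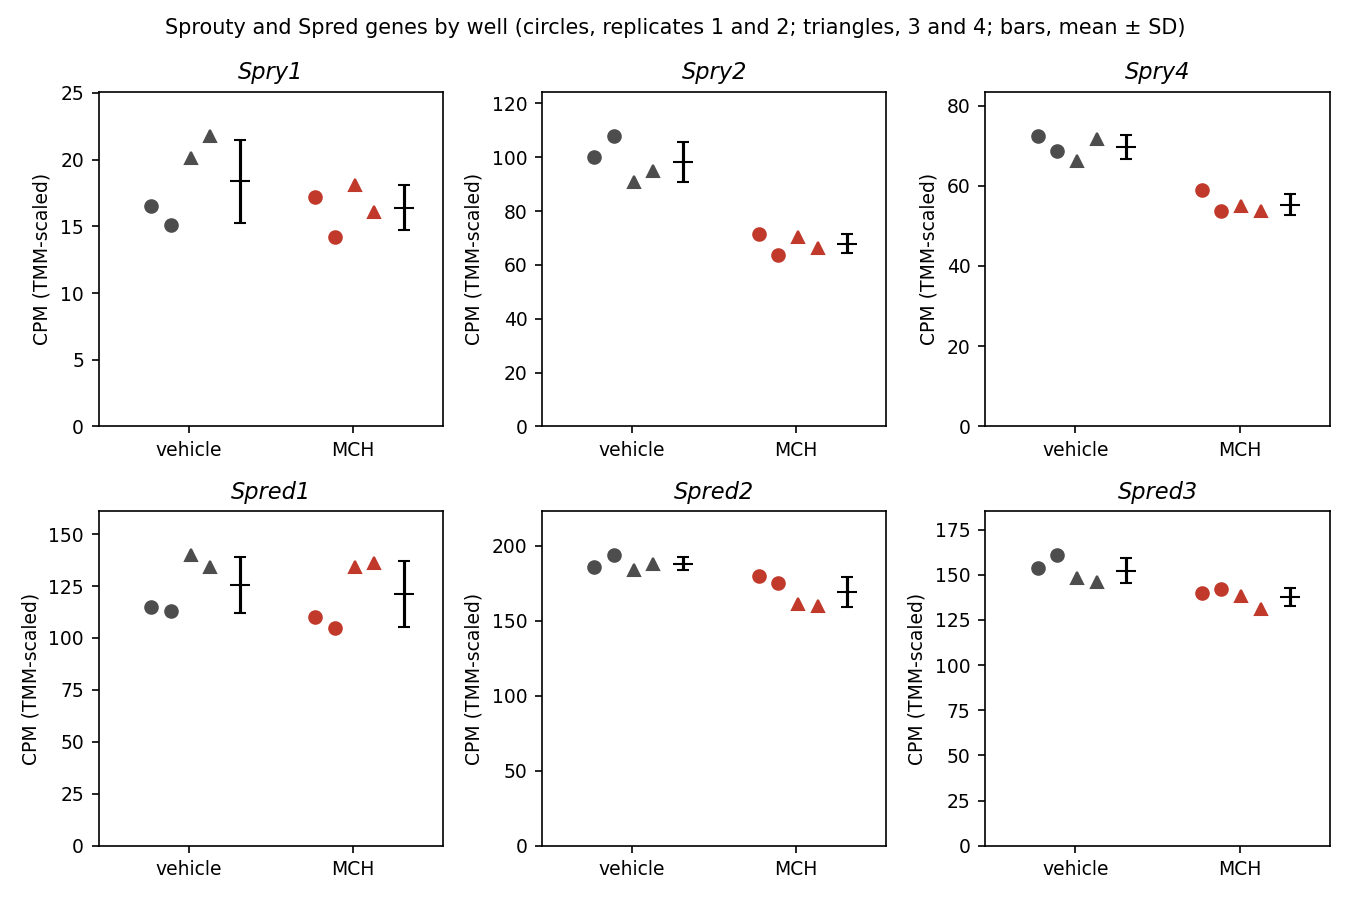
Level of each Sprouty and Spred gene in CPM (vertical axes, each from 0) in the 4 vehicle wells (grey) and the 4 MCH wells (red), with mean ± SD. Circles are replicates 1 and 2 and triangles replicates 3 and 4. MCH wells lie below all vehicle wells for *Spry2*, *Spry4*, *Spred2* and *Spred3*, and the triangles lie above the circles in both treatments for *Spred1*.

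Counted over the family, 2 of 6 members were called lower, where 0.207% of all tested genes were, and none was called higher. In 4 of 6 members every MCH well was below every vehicle well, which held for 443 of the 14962 genes (2.96%). The median log2 fold change of the members was −0.16. Since these genes were brought together with earlier results of the same data known, these counts describe the family and do not test it.

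The calls for *Spred2* and *Spred3* depended on a block in the fit, and both blocks were taken from these same counts. With a replicate block, which compares wells of the same replicate number, 4 of 6 members were called lower against 2.25% of all genes, and edgeR's adjusted *P* values were 0.000379 for *Spry2*, 4.79e-05 for *Spry4*, 0.0126 for *Spred2* and 0.0128 for *Spred3*. With a block for the sides, 4 of 6 were again called lower, against 2.61% of all genes, and *Spred2* and *Spred3* had adjusted *P* values of 0.0052 and 0.00735 from edgeR. DESeq2 without a block called *Spry2* (adjusted *P* = 3.93e-11) and *Spry4* (4.39e-06) but neither *Spred2* (0.169) nor *Spred3* (0.173), and called 0.8% of the 11500 genes it adjusted over lower. *Spry1* had adjusted *P* values of 0.27 and 0.304 with the respective edgeR blocks and 0.855 with DESeq2, and *Spred1* had 0.475, 0.437 and 0.997. The fold changes themselves moved little between these fits. That of *Spry2* was −0.53 in all 4 of them, and that of *Spry4* −0.33.

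**Figure D2:**
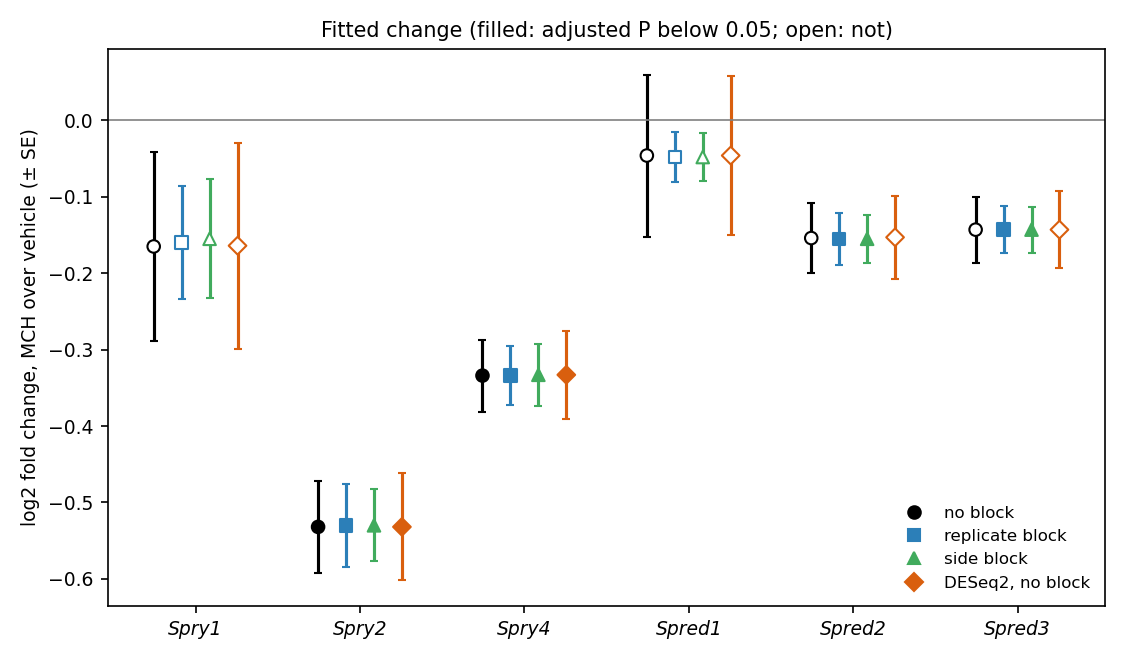
Log2 fold change of MCH over vehicle (vertical axis, bars ± SE) for each member in 4 fits, namely edgeR without a block, with the replicate block and with the side block, and DESeq2 without a block. Filled symbols have an adjusted *P* below 0.05. *Spry2* and *Spry4* are filled in all 4 fits, *Spred2* and *Spred3* in the fits with a block, and *Spry1* and *Spred1* in none.

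Levels also differed between the sides, given here as fitted averages over both treatments and without a test. In log2 CPM, *Spred1* was 0.30 and *Spry1* 0.26 higher in replicates 3 and 4 than in replicates 1 and 2, the direction in which the astrocyte, oligodendrocyte, microglia and vessel markers moved. The other members were slightly lower there, by −0.05 for *Spry4*, −0.08 for *Spry2* and *Spred3* and −0.09 for *Spred2*. Not all of these held in each treatment. The sides overlapped in MCH wells for *Spry1* and *Spry2*, in vehicle wells for *Spred2* and in both treatments for *Spry4*. The part of other cell types in these levels was not tested. Within the sides, MCH differed from vehicle in log2 CPM by −0.62 for *Spry2* on the side of replicates 1 and 2 and by −0.44 on the other side, and by −0.33 and −0.34 for *Spry4*. The values were −0.10 and −0.21 for *Spred2*, −0.16 and −0.13 for *Spred3*, −0.02 and −0.29 for *Spry1*, and −0.08 and −0.02 for *Spred1*. These within-side values carry no test of their own, and those near 0, of *Spry1* in replicates 1 and 2 and of *Spred1* in replicates 3 and 4, came from pairs of both signs. The difference between the sides itself was tested as an interaction, and edgeR called 0 of 6 members, with 1 of 6 (*Spry2*) at an unadjusted *P* below 0.05, where 7.6% of all genes were, and adjusted *P* values from 0.646 to 0.984. Over all genes the interaction was called for 0.0267%, and no other tool was run for it.

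Levels per transcript length were compared as TPM summed over the transcripts of a gene. In vehicle wells *Spry2* (90.2 ± 5.95 TPM, range 84.2 to 97.9) and *Spred2* (87.1 ± 2.23 TPM, 84.0 to 88.9) were the most abundant members and overlapped each other. *Spred3* followed at 69.4 ± 2.61 TPM (66.6 to 72.6), below both. *Spred1* (36.9 ± 4.32 TPM), *Spry4* (27.1 ± 1.08 TPM) and *Spry1* (13.9 ± 2.47 TPM) came next, with ranges of 32.7 to 41.6, 25.97 to 28.1 and 11.3 to 16.6 that did not overlap. With MCH the order changed. *Spred2* was highest at 80.3 ± 4.71 TPM (75.8 to 85.2), and *Spry2* at 63.4 ± 3.38 TPM (59.3 to 66.7) was level with *Spred3* at 63.9 ± 1.83 TPM (61.3 to 65.5). *Spred1* (36.4 ± 4.78 TPM, 31.5 to 40.7), *Spry4* (21.8 ± 1.01 TPM, 21.1 to 23.3) and *Spry1* (12.6 ± 1.3 TPM, 10.8 to 13.8) kept their places (all SD, n = 4 wells). On this scale the treatments overlapped for *Spred2*, unlike in CPM, and did not overlap for *Spry2*, *Spry4* and *Spred3*. The share of all genes without overlap was counted in CPM alone, so none stands beside this.

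**Figure D3:**
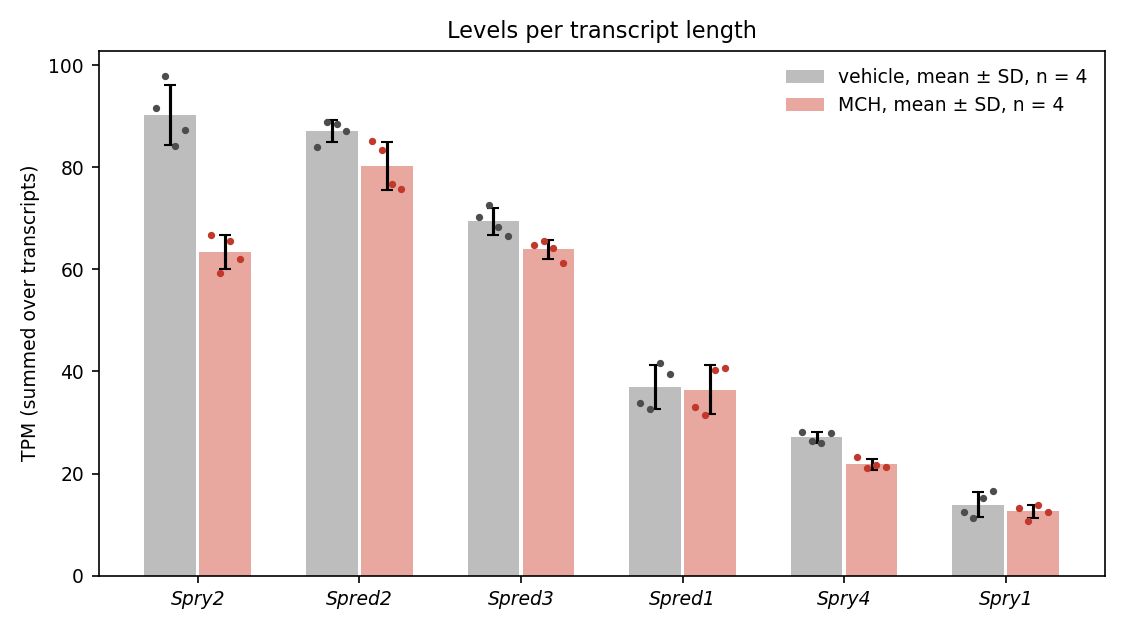
TPM of the 6 genes (vertical axis, from 0) with vehicle (grey) and MCH (red). Bars are means, error bars SD and points the 4 wells of each treatment. *Spry2* goes from 90.2 to 63.4 TPM and from the level of *Spred2* to that of *Spred3*.

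Summed over the 6 genes, the family had 320.1, 329.9, 323.7 and 324.9 TPM in vehicle replicates 1 to 4. In MCH replicates 1 to 4 the sum was 286.1, 271.7, 282.4 and 273.5 TPM. The balance between members shifted with it. The ratio of *Spry2* to *Spred2* TPM was 0.953 to 1.1 with vehicle and 0.711 to 0.856 with MCH, and the ratio of *Spry2* to *Spred3* was 1.23 to 1.35 and 0.906 to 1.03. *Spry2* was 3.13 to 3.71 times *Spry4* with vehicle and 2.81 to 3.02 times with MCH, and 2.03 to 2.99 and 1.53 to 2.02 times *Spred1*. None of these ranges overlapped between the treatments, though narrowly for *Spred1* (2.03 against 2.02). *Spry2*, itself called lower, is the numerator of each ratio, so they restate its fall in part. No share over other pairs of genes was computed. The ratio of *Spry2* to *Spry1* did overlap, at 5.25 to 8.66 with vehicle and 4.74 to 5.48 with MCH.

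Transcripts were tested separately on their estimated reads, which salmon divides among the isoforms of a gene. Among the 33527 transcripts tested edgeR called 0.0% lower, and among the 8 member transcripts holding at least 5% of their gene's reads it called 0, with 4 of 8 at an unadjusted *P* below 0.05, where 4.4% of all transcripts were. The replicate block also called 0 of the 8, and DESeq2 was not run on transcripts. *Spry2-201* and *Spry4-201* are the sole listed transcripts of their genes and repeated the gene-level log2 fold changes, at −0.53 (edgeR's quasi-likelihood test, Benjamini–Hochberg adjusted *P* = 0.129) and −0.34 (0.232). The longer *Spred2-202*, with 73.9% of the gene's reads, had −0.19 (SE 0.055), and *Spred2-201*, with 26.1%, had −0.06 (SE 0.108). *Spred3-201* held 96.1% and had −0.15 (SE 0.042), and *Spred1-201* held 99.8% and had −0.05 (SE 0.115). For *Spry1* the division was unstable. *Spry1-201* took between 24.5% and 97.2% of the gene's reads in vehicle wells and between 49.2% and 100% in MCH wells, and *Spry1-203* took 0% to 68.8% and 0% to 49.8%, so their log2 fold changes of 0.09 (SE 0.468) and −0.76 (SE 1.573) carried wide errors.

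The wider pathway was read from a list of 66 genes in 7 roles, all of which were tested. Without a block edgeR called 0 of them, with 14 at an unadjusted *P* below 0.05, where 8.5% of all genes were. DESeq2 called 2 lower, *Dusp4* and *Dusp6*, against 0.8% of all genes. The median log2 fold change of the whole list was −0.02, with 35 of 66 below 0 (51.0% of all genes). Every MCH well was below every vehicle well for 10 of the 66 (2.96% of all genes) and above for 1 (3.07% of all genes). The replicate block called 9 lower and 4 higher, against 2.25% and 1.73% of all genes, and the side block 8 lower and 3 higher, against 2.61% and 1.85%. The list was drawn up with earlier results known, as the family was.

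The feedback and target genes of ERK have the role closest to that of the Sprouty genes. In this group of 14, 10 log2 fold changes were below 0 with a median of −0.16, wells did not overlap for 6, all lower with MCH (2.96% of all genes), and the replicate block called 6 lower and 1 higher (2.25% and 1.73% of all genes). *Dusp6* and *Dusp4*, phosphatases that inactivate ERK and chosen here after their values were seen, had log2 fold changes of −0.48 (SE 0.078) and −0.42 (SE 0.077). Vehicle replicates 1 to 4 of *Dusp6* had 91.9, 86.6, 103 and 93.7 CPM and MCH replicates 1 to 4 had 70.7, 57.8, 73.1 and 66.8 CPM. For *Dusp4* these were 113, 113, 96.4 and 104 CPM and 91.5, 78.5, 74.0 and 75.7 CPM. Neither gene overlapped between the treatments. For *Dusp6* and *Dusp4* edgeR's adjusted *P* was 0.0563 and 0.0941 without a block and 4.68e-07 and 4.14e-06 with the replicate block. With the side block edgeR gave 0.00177 and 8.59e-06, and DESeq2 without a block gave 4.75e-06 and 0.000328. *Ier3*, a stress and growth factor response gene, went from 4.32 ± 0.089 to 2.22 ± 0.644 CPM (SD, n = 4 wells each, log2 fold change −0.96, SE 0.19), with an adjusted *P* of 0.122 from edgeR without a block and 0.00107 with the replicate block. *Dusp7* (−0.23) and the transcription factor *Etv5* (−0.16), also chosen after their values were seen, had adjusted *P* values of 0.00745 and 0.00937 from edgeR with the replicate block. Against this direction, *Il17rd*, which encodes the FGF signalling inhibitor Sef, had a log2 fold change of 0.30 (SE 0.317, adjusted *P* = 0.901 from edgeR without a block and 0.0234 with the replicate block). *Etv1* (0.20) and *Fosl1* (−0.53, SE 0.358) were called with neither block.

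No receptor or core cascade gene was called. The 8 receptors had log2 fold changes between −0.16 and 0.17 with a median of 0.02, among them *Fgfr1* (−0.05), *Fgfr2* (0.17), *Ntrk3* (0.10) and *Pdgfra* (−0.16), and neither block called any. The 10 genes for Ras, Raf, MEK and ERK had a median log2 fold change of −0.02, and again no block called any. Among them were *Map2k2* (−0.09), which encodes a MEK kinase, and *Mapk3* (0.03), which encodes ERK1.

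Among 12 adaptors and exchange factors (−0.08 to 0.17, median 0.04), *Grb2* (−0.08) and *Ptpn11* (−0.06), which encodes the phosphatase SHP2, were the lowest and *Rasgrf2* (0.13) and *Rasgrp1* (0.17) the highest. *Rasgrp1*, a Ras activator that responds to diacylglycerol and calcium, passed with the replicate block (adjusted *P* = 0.0194 from edgeR) and the side block (0.00845). The 8 scaffolds and Ras GTPase-activating proteins ran from −0.17 to 0.20. *Rasa1*, which encodes a Ras GTPase-activating protein, was at −0.17 (adjusted *P* = 0.0234 from edgeR with the replicate block), *Ksr2* at 0.20 (0.0197, but 0.272 with the side block and 0.476 without a block) and *Dab2ip* at −0.01. *Nf1*, the gene for the neurofibromin that Spred proteins recruit, had a log2 fold change of 0.20 (SE 0.097, adjusted *P* = 0.627 from edgeR without a block and 0.532 with the replicate block), and 0.09 without MCH replicate 1. *Ksr1*, a scaffold for Raf, MEK and ERK chosen after its values were seen, was the 1 gene with all MCH wells above all vehicle wells, 75.9 to 86.7 against 67.6 to 72.1 CPM. Its log2 fold change was 0.20 (SE 0.048), with edgeR's adjusted *P* at 0.216 without a block. It passed with the replicate block (0.0118) and the side block (0.0081).

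Of the 6 kinases downstream of ERK, *Rps6ka2* (−0.19) passed with the replicate block (edgeR, adjusted *P* = 0.00828), and *Mknk2* (−0.11), *Mknk1* (−0.01) and *Rps6ka5* (0.04) did not. Among 8 genes whose proteins bind or modify Sprouty or Spred, *Siah2*, a ubiquitin ligase that targets Sprouty2, had a log2 fold change of −0.23 (SE 0.101, edgeR's adjusted *P* = 0.568 without a block and 0.0311 with the replicate block). *Tesk1*, a kinase inhibited by Sprouty4, was at −0.09. *Cav1*, which encodes caveolin-1, was at 0.39 with an SE of 0.89.

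**Figure D4:**
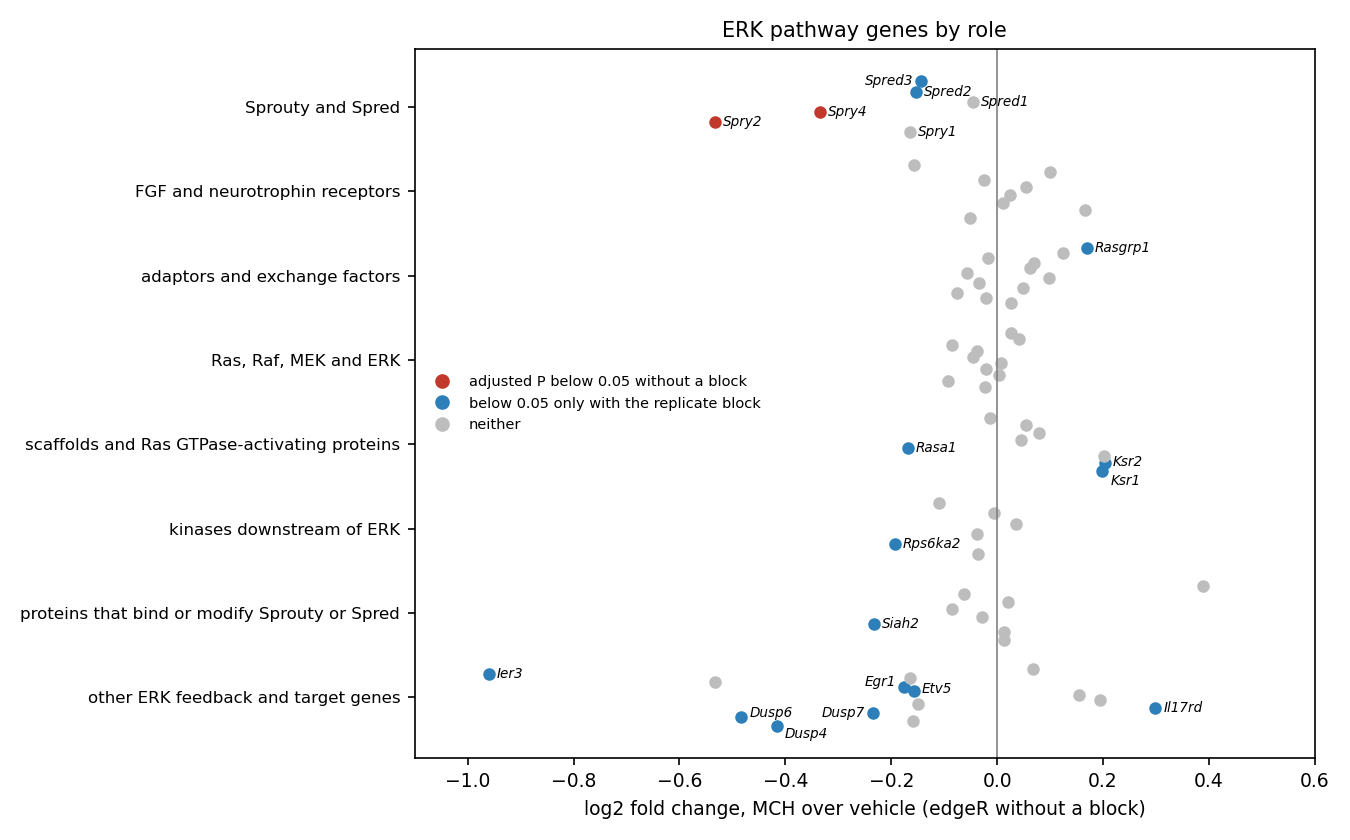
Log2 fold change of MCH over vehicle from edgeR without a block (horizontal axis) for the 6 members and the 66 pathway genes, in rows by role, with small vertical offsets for legibility. Red points have an adjusted *P* below 0.05 without a block, blue ones only with the replicate block, and grey ones in neither fit. *Spry2* and *Spry4* are the red points, and the feedback and target row holds the most blue ones.

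Genes with the most similar profiles were found by the root mean square difference of log2 CPM over the 8 wells, each gene centred on its own mean. Vehicle and MCH wells both entered, so neighbours share a member's fold change by selection. Their fold changes and calls describe them and are no separate support. For *Spry2* these were *Man1a* (0.0644), *Plekho1* (0.0679) and *Siah3* (0.0691), with log2 fold changes of −0.53, −0.48 and −0.60. All of these passed edgeR's quasi-likelihood test without a block (Benjamini–Hochberg adjusted *P* = 0.0249, 0.022 and 0.0376), but in the 8 fits without a single well *Man1a* and *Plekho1* were called in 2 each, without MCH replicate 1 or vehicle replicate 3, and *Siah3* in 0. The adjusted *P* values of these edgeR fits reached 0.126, 0.119 and 0.166. *Spry4* was nearest to *Mamld1* (0.0396), *Camkmt* (0.047) and *Ipmk* (0.0485), of which *Ipmk* passed (log2 fold change −0.37, edgeR's adjusted *P* = 0.0376), though in fits without a single well it was called in 1 of 8, that without MCH replicate 1 (0.0302), and had adjusted *P* values from edgeR of up to 0.171. *Spred2* lay closest to *Cry2* (0.0306), *Fgfr1op* (0.0307) and *Nt5dc3* (0.0309), and *Spred3* to *Trp53inp2* (0.0231), *Zfp335* (0.0239) and *Ctdp1* (0.0283). The neighbours of *Spred1* were *Mras* (0.0229), *Scg3* (0.0271) and *Itgb1* (0.0302), and those of *Spry1* were *Rpl3-ps1* (0.0686), *B4galt1* (0.0761) and *Kif9* (0.0824). *Rpl3-ps1* is a pseudogene that may share reads with its parent gene, so its level is uncertain.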

How the data were processed

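Per the paper's methods and the labels, the authors prepared stranded poly(A) libraries and quantified reads with nf-core/rnaseq 3.0 and salmon on GRCm38. The annotation release is not given in the sources used here. The labels also list R 4.0.3 and DESeq2 1.13.0, whereas the paper's reporting summary gives another DESeq2 version. The deposited gene table holds estimated counts (9.13% not whole). Estimated counts, effective lengths and TPM were also deposited for 109617 transcripts, whose read sums lay within 1 read of the gene table for 98.99% of genes. GENCODE vM21 named 45143 genes and 108214 transcripts.

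Counts were rounded and fitted in R 4.3.3 with edgeR 4.0.16 (TMM factors, filterByExpr with count minimum 10 and total minimum 15, robust quasi-likelihood F test, threshold 0.05, Benjamini–Hochberg adjustment over all genes or transcripts tested). CPM use the TMM factors, and similarity used log2 CPM with a prior count of 2. The SE is the log2 fold change over the square root of F. DESeq2 1.42.0, other scaling, no filter, a length offset from the deposited effective lengths, blocks and fits without single wells were alternatives. The code was tested on simulated counts.

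Members and lists were chosen with earlier results of these data known. Named are the members, their transcripts with at least 5% of the gene's reads, pathway genes past the threshold and otherwise the lowest and highest 2 log2 fold changes of each role, and the 3 nearest profiles per member. Marker lists cover astrocytes, microglia, neurons, inhibitory neurons, dividing cells, fibroblasts and vessels, and the oligodendrocyte lineage. Some genes that this rule names are not reported here. No protein sequences were used here.

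Treatments share replicate numbers in the labels. Deviations from treatment means correlated at 0.445 to 0.545 in the 4 same-number pairs, at 0.475 to 0.521 for other numbers on the same side and at −0.548 to −0.438 across sides. Every same-number pair was over 0.1, and on that rule the numbers were taken to pair the wells for the replicate block. Same-number wells always lay on the same side, and other numbers on that side correlated to a like degree. The check therefore cannot tell pairing by number from pairing by side. The pairing comes from these counts, since no source says what a number marks, and the side block likewise uses the counts a second time.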

Additional observations from a re-analysis of the deposited data

Results flagged for a closer look

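In 84 groups of 4 wells, the gap between the most extreme well and its nearest neighbour was compared with the range of the group, and 3 groups exceeded Dixon's critical value. Chance gives such a result in about 1 of 20 groups. No group of a Sprouty or Spred gene was among them. *Pdgfra*, a receptor gene that marks oligodendrocyte precursors, was at 1.45 CPM in vehicle replicate 4 and at 1.8 to 1.82 CPM in the other vehicle wells (gap over range 0.94). *Nf1* was at 138 CPM in MCH replicate 1 and at 101 to 106 CPM in the other MCH wells (0.853). *Ier3* was at 3.18 CPM in MCH replicate 3 and at 1.85 to 1.97 CPM in the other MCH wells (0.915), and all 4 vehicle wells were above it at 4.22 to 4.41 CPM.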

How the results depend on the processing

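The count of members called lower was 2 with DESeq2, with DESeq2's size factors in edgeR and without the low-count filter, but 1 with the length offset and 4 with either the replicate block or the side block. Leaving out single wells gave 0 to 2. Pathway genes called lower numbered 2 with DESeq2, 1 without the filter, 9 with the replicate block and 8 with the side block, and 0 to 1 without single wells, and those called higher numbered 4 with the replicate block and 3 with the side block. Over all genes, calls lower and higher were 92 and 65 with DESeq2, 7 and 0 with the length offset, 337 and 259 with the replicate block and 391 and 277 with the side block, and without single wells 4 to 25 and 0 to 5. Fits without a well test fewer samples, and the cause of these differences was not tested for any setting. The log2 fold change turned sign with the length offset for *Pdgfra* (0.036), *Kif9* (0.10) and *Cav1* (−0.52), and without the filter for *Mknk1* (0.001) and for the difference between sides of *Spred3* (−0.001), none of them past the threshold in any fit. Without single wells the ranges that crossed 0 were −0.099 to 0.021 for *Spred1*, −0.037 to 0.021 for *Dab2ip*, −0.021 to 0.098 for *Rps6ka5*, −0.065 to 0.052 for *Mknk1*, −0.10 to 0.90 for *Cav1*, −0.106 to 0.004 for *Itgb1*, −0.162 to 0.022 for *Kif9*, −0.059 to 0.057 for *Mras*, −0.088 to 0.014 for *Scg3*, and, for transcripts, −0.20 to 0.30 for *Spry1-201*, −0.102 to 0.019 for *Spred1-201* and −0.142 to 0.019 for *Spred2-201*. The neighbours *Man1a* (0.0606), *Plekho1* (0.268), *Siah3* (0.141) and *Ipmk* (0.407) lost their call with the length offset (edgeR's adjusted *P*). *Spry1*, with 377 to 586 reads per well, had the least depth of the 6 genes measured, and the other 5 had at least 1430 reads in every well. With 4 wells per treatment, a difference of the size seen for *Spred2* and *Spred3* was not called without a block.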
